A study of Drosophila melanogaster with 6 samples.

Results

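The transcripts of 10 basement membrane genes were followed in wing imaginal discs of Drosophila melanogaster, larval epithelia from which the wing and the dorsal thorax of the adult develop. The genes were Col4a1 (older symbol Cg25C), vkg, LanA, LanB1, LanB2, trol, Ndg, SPARC, Pxn and Ppn. All probe sets that the platform annotation assigns to exactly 1 gene were taken where that gene was in this set, which gave 18 probe sets for the 10 genes, of 18769 probe sets and 11982 named genes on the array. Of these 18 probe sets 8 belonged to trol, 2 to Pxn and 1 to each other gene.

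Larvae of the third instar were dissected at 96 h AED, from the strain w1118, used as wild type, and from the kdm5 mutant strain kdm510424. The product of Kdm5 (lid) removes methyl groups from lysine 4 of histone H3. Each genotype was measured in 3 biological replicates, with about 60 discs and 1 Affymetrix Drosophila Genome 2.0 array for each. The labels do not say that both strains share a genetic background, or that the replicates came from separate crosses, so strain and mutation cannot be told apart. The p-values rest on the spread among these samples, which may be technical.

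The basement membrane is the sheet of extracellular matrix on the basal face of an epithelium. Its main parts are a network of collagen IV, a network of laminin trimers, the heparan sulfate proteoglycan perlecan, and nidogen, which can bind several of the others. In Drosophila larvae much of the collagen IV in the sheet around the imaginal discs is made outside the disc epithelium, in the fat body above all, and reaches the discs through the haemolymph, and haemocytes also make several of these proteins. The arrays measured transcripts in the dissected tissue, not the protein in the sheet.

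The median log2 level of each array lay between 4.43 and 4.45, against a median of 4.44 over all probe sets and arrays, and correlations across probe sets were 0.998 to 0.999 within and 0.989 to 0.990 between genotypes. Kdm5 itself read 10.09, 10.15 and 9.98 on the wild type arrays and 4.67, 3.70 and 4.49 on the mutant arrays. The wing disc markers measured (ap, bi, en, nub, pnr, salm, tsh and vg) had means of at least 9.23 in both genotypes by their brightest probe sets. Of these, salm and vg changed by -0.21 and -0.18 in the mutant (log2, limma adjusted p = 0.039 and 0.0347). The second probe set of vg, with a wild type mean of 10.65, changed by 0.04 and was not called (log2, limma adjusted p = 0.678). A dimmer probe set of ap changed by 0.58, and those of nub by 0.95 and -0.59 (log2, limma adjusted p = 0.0004025, 0.001048 and 0.006337). Detection calls were not used here. Of the 18 probe sets 5 had a mean below the median level, where little or no transcript and array background look alike: 1632082_at of Ndg, 1629847_at of Pxn and 1630978_s_at, 1637281_at and 1640050_at of trol.

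The basement membrane genes did not move together. Both collagen IV chains and SPARC fell in the mutant, LanB1 and Ppn rose, and LanA, LanB2, trol, Ndg and Pxn did not pass the test. Of the 18 probe sets 2 were called higher and 3 lower, 27.8% in all, against 18.3% of all probe sets (limma, adjusted p under 0.05 over all probe sets, the meaning of a call throughout). The shares called in each direction over all probe sets were 8.49% higher and 9.84% lower. Among the 13 probe sets above the median level 38.5% were called, against 31.9% of all probe sets above it, and with 1 probe set per gene 5 of the 10 genes, 50%, were called, against 21.7% of all named genes. The excess over the background thus depended on the scale. The gene trol holds 8 of the 18 probe sets. By their brightest probe sets 1 of the 10 genes lay below the median level, against 4708 of the 11982 named genes. The members are described singly below. The median log2 change of the 18 probe sets was 0.02, and that of all probe sets 0.01.

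**Figure D1:**
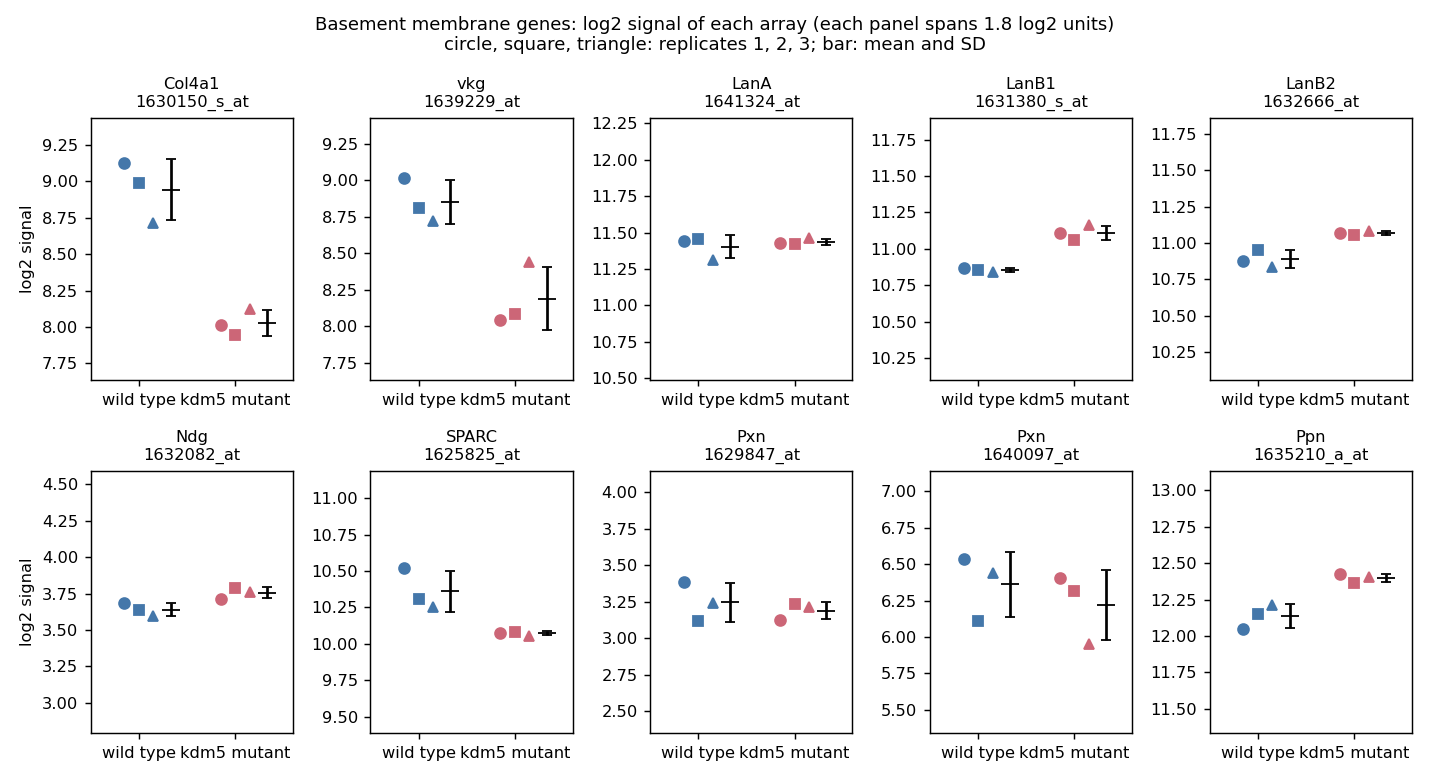
Log2 signal of each array (y axis) in wild type and kdm5 mutant discs (x axis) for every probe set of the 10 genes other than trol; symbols are the 3 replicates, and bars the mean and SD. The arrays of the genotypes are apart for Col4a1, vkg, LanB1, LanB2, Ndg, SPARC and Ppn and overlap for LanA and both Pxn probe sets; Ndg and 1629847_at of Pxn lie below the median level of 4.44.

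The collagen IV genes showed the largest changes among the 18 probe sets. In Drosophila collagen IV is built from the chains encoded by Col4a1 and by vkg (viking), which together form its triple helices. Col4a1 read 9.13, 8.99 and 8.71 in wild type replicates 1, 2 and 3 and 8.01, 7.94 and 8.12 in the mutant replicates. All mutant arrays lay below all wild type arrays, and the gap between the groups was wider than the range within either. It fell 1.89-fold (log2 -0.92 ± 0.11 SE, limma adjusted p = 0.00116). The exact permutation test over the 6 arrays (two-sided) returned p = 0.1, below which 3 against 3 cannot go.

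For vkg the wild type replicates read 9.02, 8.81 and 8.72 and the mutant replicates 8.04, 8.08 and 8.44. The groups again did not overlap, with mutant replicate 3 nearest to wild type. It fell 1.58-fold (log2 -0.66 ± 0.12 SE, limma adjusted p = 0.00924, exact two-sided permutation p = 0.1). Both chains kept the call under all 16 alternatives, with log2 changes of -1.03 to -0.74 for Col4a1 and of -0.79 to -0.48 for vkg. The Col4a1 probe set carries the suffix _s, which the manufacturer gives to probe sets that can match transcripts of more than 1 gene, so a share of its signal from another gene was not tested.

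Within an array, Col4a1 minus vkg was 0.11, 0.17 and -0.01 in wild type and -0.03, -0.14 and -0.32 in the mutant. The mutant values all lay below the wild type values, the nearest by little. The wild type mean of this difference was 0.09 ± 0.09 and the mutant mean -0.16 ± 0.15 (SD, n = 3 each), so the log2 fall of Col4a1 exceeded that of vkg by 0.25. The exact permutation test over arrays (two-sided) gave p = 0.1, the smallest p that 3 against 3 arrays allow, so the test could not pass a threshold of 0.05 whatever the difference.

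**Figure D2:**
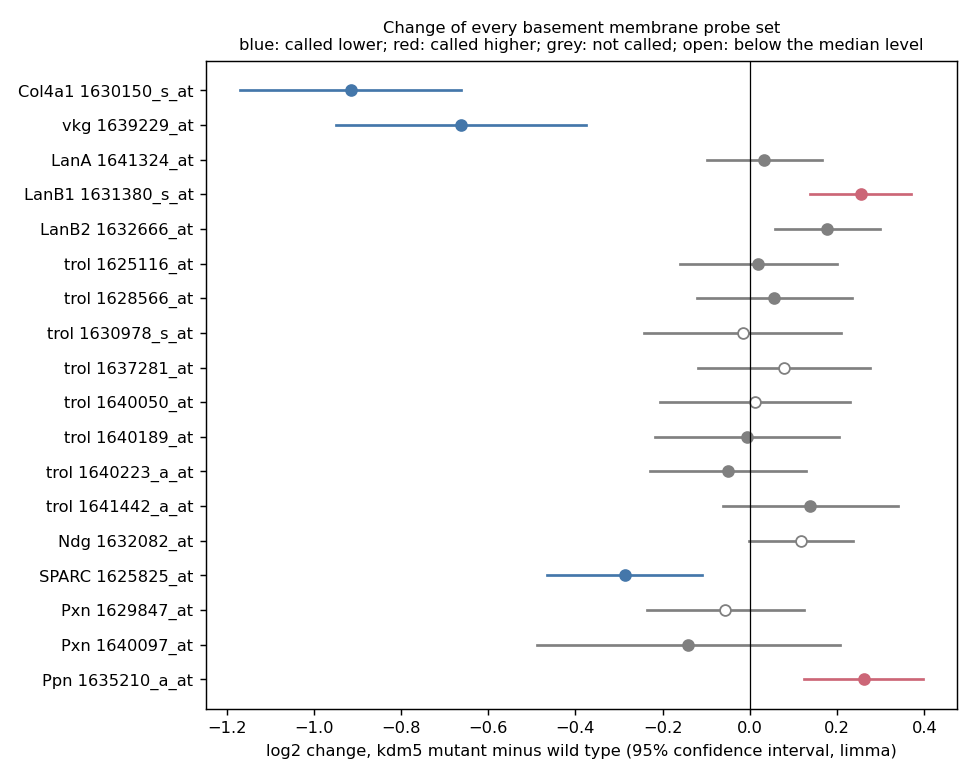
Log2 change, mutant minus wild type, with its 95% confidence interval from limma (x axis) for each of the 18 probe sets (y axis); blue points were called lower, red higher, grey not called, and open points lie below the median level. The intervals of Col4a1, vkg and SPARC lie below 0 and those of LanB1, LanB2 and Ppn above it, with LanB2 not called after adjustment, while those of all 8 trol probe sets span 0.

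SPARC encodes a small secreted protein that binds collagen and in Drosophila is needed for collagen IV to be retained in basement membranes. It read 10.52, 10.31 and 10.25 in wild type and 10.08, 10.08 and 10.06 in the mutant. The mutant arrays were nearly identical and lay just below the lowest wild type array. It fell 1.22-fold (log2 -0.29 ± 0.08 SE, limma adjusted p = 0.0387). The call was lost in 8 of 16 alternatives. Leaving out any array other than wild type replicate 3 ended it (limma adjusted p from 0.062 to 0.105), and the change without wild type replicate 1 was -0.21. It was also lost with the arrays centred on their polyadenylated or hybridization spike-in controls, at -0.21 and -0.11, and with the replicate number as a term (limma adjusted p = 0.0616).

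The laminins are trimers of an α, a β and a γ chain, and in Drosophila LanB1 encodes the β and LanB2 the γ chain shared by both trimers. LanA encodes one of the α chains and wb (wing blister) the other. LanB1 read 10.87, 10.86 and 10.84 in wild type and 11.11, 11.06 and 11.16 in the mutant. The wild type arrays were tightly grouped, and each mutant array lay above them. It rose 1.19-fold (log2 0.25 ± 0.05 SE, limma adjusted p = 0.0119), a call kept under all 16 alternatives (0.23 to 0.43). Its probe set too has the suffix _s.

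LanB2 read 10.88, 10.95 and 10.84 in wild type and 11.07, 11.05 and 11.08 in the mutant, so its arrays did not overlap either. Its log2 change of 0.18 ± 0.05 (SE) missed the threshold (limma adjusted p = 0.0537), with a 95% confidence interval of 0.06 to 0.30 before adjustment. In 9 of 16 alternatives it passed, including quantile normalization, 1 probe set per gene and the fit without wild type replicate 2, and its adjusted p ran from 0.00198 to 0.136 (limma). The LanB1 and LanB2 values were thus alike in sign and close in size, with the call on LanB2 resting on the setting.

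LanA overlapped between genotypes. Its wild type replicates read 11.44, 11.46 and 11.31 and its mutant replicates 11.42, 11.42 and 11.46. The change on the log2 scale was 0.03 ± 0.06 (SE, limma adjusted p = 0.767), and the 95% confidence interval of -0.10 to 0.17 bounds a change in either direction. The other α chain gene, wb, which was not among the 10, rose: its brightest probe set read 8.22, 8.43 and 8.34 in wild type and 8.86, 8.74 and 8.89 in the mutant, a difference of 0.50 ± 0.07 (SE, limma adjusted p = 0.00271). Its other probe sets lay below the median level and were not called. Whether wb and LanA differ in their change was not tested.

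Perlecan, a heparan sulfate proteoglycan, is encoded by trol, and its 8 probe sets agreed in showing no called change. The largest log2 change among them in either direction was 0.14 (1641442_a_at, 95% confidence interval -0.06 to 0.34). That probe set read 8.27, 8.33 and 8.01 in wild type and 8.34, 8.34 and 8.34 in the mutant, so its arrays did not overlap, by a small margin. With the arrays centred on hybridization spike-ins it was called higher (0.32, limma adjusted p = 0.0472), as was Ndg (0.29, limma adjusted p = 0.0246). The brightest, 1625116_at, read 8.85, 9.12 and 8.89 in wild type and 8.96, 8.97 and 8.99 in the mutant, with the mutant arrays inside the wild type range. It changed by 0.02 ± 0.08 (log2, SE, limma adjusted p = 0.905). The remaining 3 probe sets above the median level, 1640223_a_at, 1640189_at and 1628566_at, had log2 changes of -0.05, -0.01 and 0.06. Which exons or transcripts of this long gene the probe sets match was not analysed here.

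Nidogen and peroxidasin were low or variable. Nidogen is encoded by Ndg, and its probe set read 3.68, 3.64 and 3.60 in wild type and 3.71, 3.79 and 3.76 in the mutant, all below the median level. Its arrays did not overlap, yet the difference of 0.12 ± 0.05 (log2, SE) was not called (limma adjusted p = 0.174). Peroxidasin, a secreted haem peroxidase that forms cross-links in the collagen IV network, is encoded by Pxn. Its brighter probe set, 1640097_at, read 6.53, 6.11 and 6.44 in wild type and 6.40, 6.31 and 5.95 in the mutant, with the genotypes intermixed. The difference was -0.14 ± 0.15 (log2, SE, limma adjusted p = 0.598), and its 95% confidence interval of -0.49 to 0.21 was the widest of the 18 probe sets. The dim probe set of Pxn changed by -0.06 ± 0.08 (SE).

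Papilin, a secreted matrix proteoglycan related to the ADAMTS proteases, is encoded by Ppn. It read 12.05, 12.15 and 12.21 in wild type and 12.42, 12.37 and 12.40 in the mutant, with all mutant arrays above the wild type arrays. It rose 1.20-fold (log2 0.26 ± 0.06 SE, limma adjusted p = 0.0203). Its call ended with any array other than wild type replicate 3 left out (limma adjusted p from 0.0516 to 0.0726) and with the replicate number as a term (0.0582), while the change itself stayed between 0.22 and 0.44 over the 16 alternatives.

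Over the 18 probe sets the arrays of the genotypes did not overlap in 8, or 44.4%, against 36.1% of all probe sets. The plot of 6 members under each setting separates the collagen IV chains and LanB1, called throughout, from SPARC, LanB2 and Ppn, whose calls came and went. With any single array left out, 2 or 3 probe sets were called lower and 1 or 2 higher, and without wild type replicate 2 the higher calls were LanB1 and LanB2. LanB1 was the 1 higher call that remained with wild type replicate 1 or any mutant array left out.

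**Figure D3:**
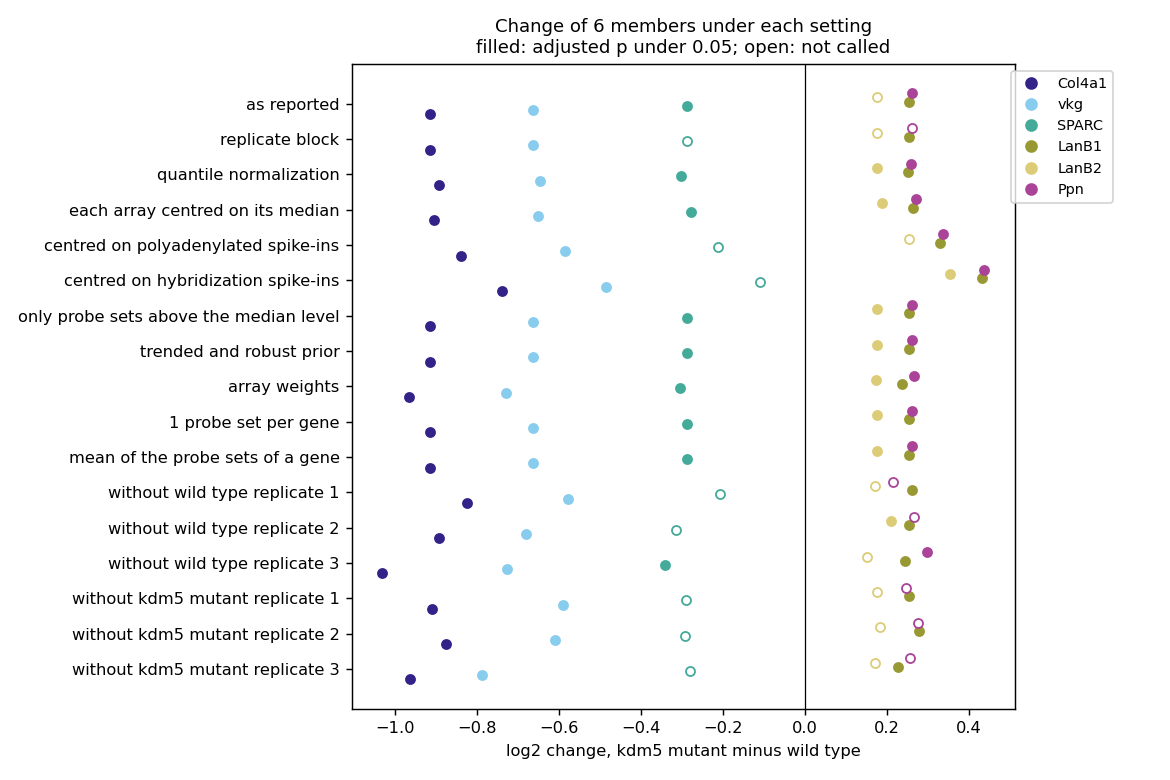
Log2 change, mutant minus wild type (x axis), of Col4a1, vkg, SPARC, LanB1, LanB2 and Ppn as reported and under each of the 16 alternatives (y axis); filled points have an adjusted p under 0.05. Col4a1, vkg and LanB1 are filled in every line, and no point crosses 0.

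Genes that make, modify, degrade or bind the basement membrane were counted from 4 lists, with 1 probe set per gene. Of 36 measured genes 8 rose and 5 fell, 36.1% in all, against 21.7% of all named genes (9.76% higher and 11.9% lower). Their median log2 change was 0.06, and that of all named genes 0.00. Of the 36 genes 6 lay below the median level, against 4708 of the 11982 named genes. Calls were more frequent above that level, at 31.9% of probe sets there against 18.3% of all probe sets. A share for named genes of like level was not computed. Lower calls numbered 4 or 5 under every alternative, and higher calls 6 to 17.

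Among 8 genes for the secretion of collagen and other matrix proteins only Plod was called, and 1 of the others lay below the median level. Plod encodes the lysyl hydroxylase that modifies collagen in the endoplasmic reticulum, and its probe set has the suffix _s. Plod read 9.60, 9.60 and 9.58 in wild type and 9.02, 8.98 and 8.95 in the mutant, a difference of -0.61 ± 0.05 (log2, SE, limma adjusted p = 0.000146), and was called under all 16 alternatives. The prolyl hydroxylase gene PH4alphaEFB, whose product also modifies collagen, had a log2 change of the other sign, 0.19 ± 0.06 (SE), and was not called (limma adjusted p = 0.0588, called under 9 of 16 alternatives). Tango1, needed for the export of collagen from the endoplasmic reticulum, had a change of 0.16 and was not called.

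Of 8 genes of matrix proteases, their inhibitors and cross-linking enzymes 3 rose and 1 fell. Mmp2, a matrix metalloprotease, rose by 0.61 ± 0.12 and Timp, the inhibitor of matrix metalloproteases, by 0.48 ± 0.09, both called under all 16 alternatives (log2 change ± SE; adjusted p = 0.0112 and 0.0103, limma). The dimmer probe sets of these genes were not called, with log2 changes of -0.02 for Mmp2, which lay below the median level there, and 0.33 for Timp. Loxl1, a lysyl oxidase of the family that cross-links collagens, rose by 0.44 ± 0.11 (adjusted p = 0.0296, limma), a call that ended when the arrays of wild type replicate 2 or of mutant replicates 2 or 3 were left out (adjusted p from 0.0572 to 0.0982) and with the replicate number as a term (0.0518). The scaf gene, which encodes a secreted protein related to serine proteases, fell from 10.55 ± 0.17 to 9.38 ± 0.03 (SD, n = 3 each). Its probe set also has the suffix _s.

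Of 9 other matrix genes wb and the netrin gene NetB rose and Mp (Multiplexin, the collagen XV and XVIII relative) fell. Mp changed by -0.37 ± 0.05 (log2, SE, limma adjusted p = 0.00324), less than either collagen IV chain, and lost its call with the arrays centred on hybridization spike-ins. Its second, dimmer probe set was not called. NetB changed by 0.27 ± 0.07 and was called in 10 of 16 alternatives; with 1 array left out it was called only without wild type replicate 2 (limma adjusted p up to 0.103).

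Among 11 receptor genes 3 rose and 2 fell. The integrin α chain genes, whose products pair with a β chain to bind laminins and other matrix ligands, moved in both directions. The scb gene (αPS3) rose from 8.58 ± 0.18 to 9.58 ± 0.08 (SD, n = 3 each) and if (αPS2) by 0.43 ± 0.07 (SE), while mew (αPS1) fell by 0.55 and ItgaPS5 fell by 0.66, all on the log2 scale. The β chain gene mys had a change of 0.17 ± 0.07 (log2, SE) and was not called (limma adjusted p = 0.166). The glypican gene dlp rose by 0.39 ± 0.05 (log2, SE, limma adjusted p = 0.00153).

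**Figure D4:**
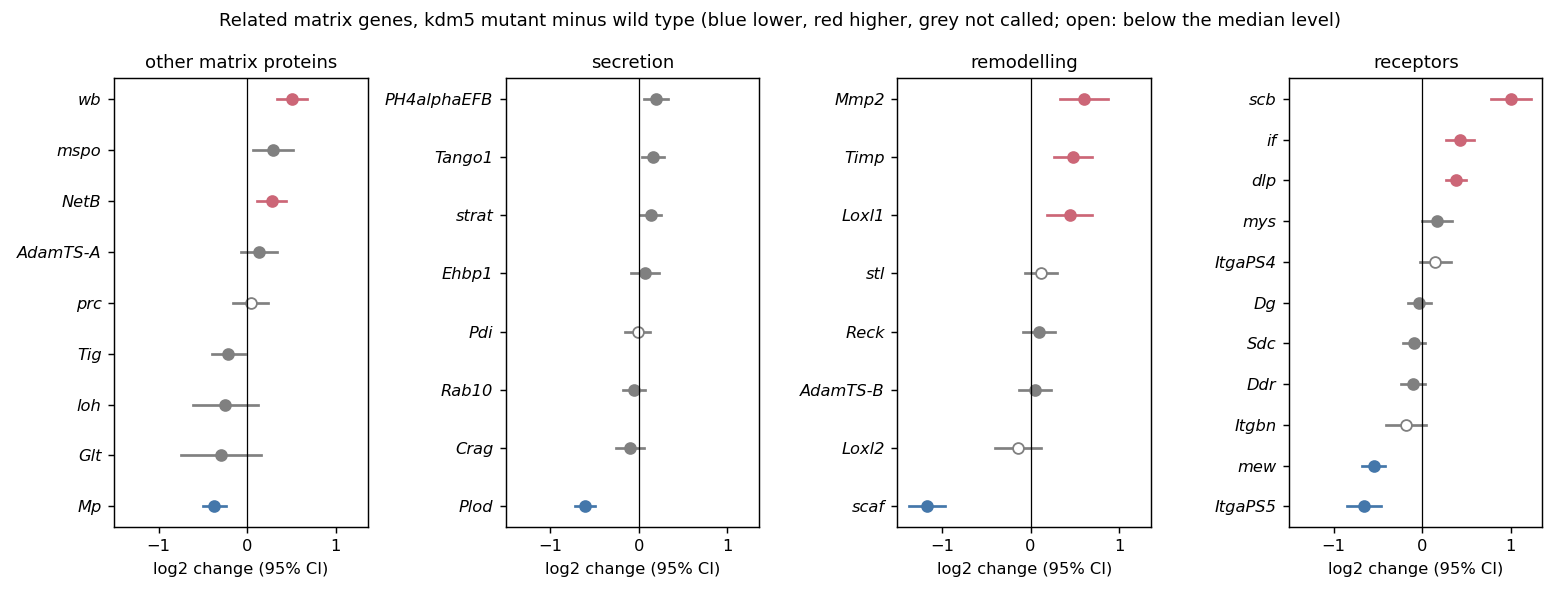
Log2 change, mutant minus wild type, with its 95% confidence interval from limma (x axis) for 36 genes related to the basement membrane in 4 lists (panels, 1 gene per line); colours as called, open points below the median level. Plod is the only called gene of the secretion list, and scb and scaf have the largest rise and fall.

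Among markers of cells that make basement membrane proteins outside the disc epithelium, most fat body markers fell. Of the haemocyte markers more fell than rose, and 8 of 15 were not called. Fewer such cells and less RNA per cell cannot be told apart in this tissue RNA, and other causes of these changes were not tested. Of 15 haemocyte markers outside the 10 genes 5 fell and 2 rose, 46.7% in all, against 21.7% of all named genes (9.76% higher and 11.9% lower). Their median log2 change was -0.13. The summed linear signal of the list was 2218 to 2559 in wild type and 1984 to 2116 in the mutant, so the groups did not overlap. The brightest genes weigh most in such a sum. In both genotypes those were ush, crq and Pvr, of which only Pvr was called. Their wild type means were 9.08, 8.85 and 8.67 and their mutant means 8.95, 8.76 and 9.24. The prophenoloxidase genes PPO1 and PPO2, known from the crystal cells, changed by -1.59 ± 0.21 and -1.56 ± 0.13 (log2 change ± SE). Of the markers known from plasmatocytes, Hml changed by -0.56 ± 0.14 and He by -0.80 ± 0.20, while eater rose by 0.57 ± 0.16 (log2 change ± SE). NimC1, crq and NimB2 were not called, with log2 changes of 0.01, -0.09 and 0.01. Sr-CI, at -0.52 ± 0.15 (log2, SE), narrowly missed a call (limma adjusted p = 0.0527). The receptor gene Pvr rose by 0.57 ± 0.07, and NimB1, below the median level, had a change of -0.65 ± 0.06 (log2 change ± SE). Which cells of the dissected tissue carried the Pvr signal was not tested. PPO1, PPO2 and Pvr were called under all 16 alternatives, Hml and eater under 11 and He under 12. Hml lost its call under quantile normalization (limma adjusted p = 0.0589) and eater with the replicate number as a term. No probe set of the list read 0, and lz and NimB1 lay below the median level.

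Of 9 fat body markers 6 fell and none rose, 66.7% in all, against 21.7% of all named genes. Their median log2 change was -1.41. Their summed linear signal was 3673 to 4881 in wild type and 1296 to 1410 in the mutant, so the groups did not overlap. Obp99a changed by -1.41 ± 0.07, Obp99b by -2.83 ± 0.34, Fbp2 by -2.82 ± 0.38, Fbp1 by -1.82 ± 0.19 and FASN1, a fatty acid synthase gene that many tissues express, by -1.40 ± 0.08 (log2 change ± SE). Apoltp lay below the median level. Among other cell types, 6 of 8 salivary gland and 7 of 7 muscle markers fell, 3 of 5 tracheal markers rose and 1 fell, and 1 of 6 myoblast markers rose and 1 fell. Of all named genes 9.76% were called higher and 11.9% lower. The median log2 changes were -2.52 for salivary gland, -1.27 for muscle, 0.37 for tracheal and 0.02 for myoblast markers. A fall was thus not particular to the fat body and haemocyte lists.

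Wild type replicate 1 gave the highest wild type value of Col4a1, vkg and SPARC, and of 9 of the 15 haemocyte and 6 of the 9 fat body markers. PPO1, PPO2, Hml, Obp99b and Fbp1 were among these markers, whereas Pvr, Obp99a and FASN1 were highest in wild type replicate 2. Of the salivary gland markers 7 of 8 were highest in wild type replicate 1, and of the disc markers 5 of 8. The counts were 3 of 7 for muscle, 2 of 6 for myoblast and 1 of 5 for tracheal markers. The summed linear signal of the salivary gland markers was 9219 in wild type replicate 1, against 4020 and 4177 in replicates 2 and 3. Such a share over all probe sets was not computed. Without wild type replicate 1 the log2 changes were -0.82 for Col4a1 and -0.58 for vkg, both still called (limma adjusted p = 0.0036 and 0.0321). Wild type replicate 1 was also the highest wild type array for LanB1, which rose, and for 1640097_at of Pxn. LanB2, Ppn, LanA and all 5 trol probe sets above the median level were highest in another wild type array. The part of haemocytes, fat body or other adhering tissue in the changes of the 10 genes was not tested.

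**Figure D5:**
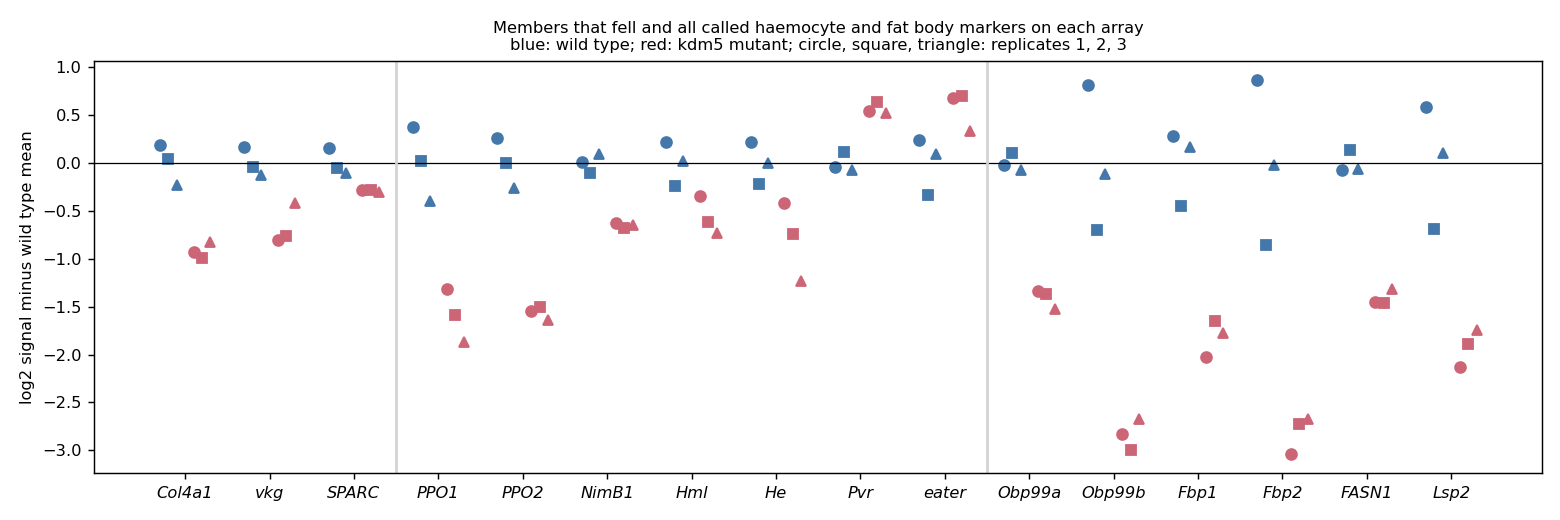
Log2 signal of each array minus the wild type mean (y axis) for the 3 members that fell, the 7 called haemocyte markers and the 6 called fat body markers (x axis); blue is wild type, red the mutant, and symbols are the 3 replicates. Col4a1 and vkg fell by 0.92 and 0.66, less than PPO1, PPO2 and the fat body markers shown. NimB1 and Hml changed by -0.65 and -0.56, He fell by 0.80, and Pvr and eater rose. Differences between genes were not tested here.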

How the data were processed

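RNA of 6 samples was measured on Affymetrix Drosophila Genome 2.0 arrays, 3 per genotype, grouped and numbered by the titles in the labels. The values are the log2 signals of the series matrix, which the authors deposited already normalized. The tools named in the submitters' processing notes are Affymetrix Expression Console, GCOS, GCRMA and PLIER; which of them made these values is not stated there. The minimum and maximum of the arrays were alike, and no 2 arrays shared more than 1 identical value. The number of arrays limits the precision.

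Of 18952 probe sets 183 manufacturer's controls were left out. The platform annotation gave 1 gene for 13647 of the other 18769, several for 402 and none for 4720, and symbols of 13544 were updated through the gene table of RefSeq Release 6. A gene outside the 10 was represented by its probe set of highest mean. The test was limma 3.58.1 in R 4.3.3 on every probe set (lmFit and eBayes, genotype as the only term, two-sided, 4 residual degrees of freedom), with Benjamini-Hochberg adjustment over all 18769 probe sets and a threshold of 0.05. The code of the fit was run on simulated data with known changes, which does not test the calls made here.

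The members, the lists and the settings were chosen with earlier results of these data known. Named are Kdm5, every member, and of each other list called members of smallest p, at most 5; no gene of the myoblast, muscle, tracheal and salivary gland lists is named. Outside this rule, and with their values seen, are PH4alphaEFB, Tango1, mys and the disc markers ap, bi, en, nub, pnr and tsh. So are the haemocyte markers He, eater, NimC1, crq, NimB2, Sr-CI, ush and lz, and the fat body markers Apoltp and, in a plot, Lsp2. NetA, dally, Mmp1, Adam, Rab8, Sar1 and Sec23 of the basement membrane lists had no probe set assigned to exactly 1 gene and are not analysed here. The same holds for Lsp1alpha, Lsp1beta and Lsp1gamma of the fat body list and for hth, sd and wg of the disc list. Some genes of the muscle, myoblast and tracheal lists are also missing for this reason. Alternatives were a replicate term, quantile normalization, centring on array medians or on either kind of spike-in control, weights for the arrays, a variance prior with trend and robust fit, leaving out probe sets below the median level, 1 probe set or the mean of probe sets per gene, and each array left out. Centring on spike-ins used the mean of the 12 polyadenylated or 9 hybridization controls of the newer (r2) series. It was first run with the median of all 27 or 18 such controls, and the definition was changed after those results were seen, to match an earlier treatment of these data; both are given. No sequence or genome position is given, since the series names no build and the sources used here hold no sequences. Figures were drawn with matplotlib 3.10.9.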

Additional observations from a re-analysis of the deposited data

How the results depend on the processing

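Over 16 alternatives Col4a1 and vkg stayed lower and LanB1 higher with their calls, and no called member changed sign. Of the 18 member probe sets 9 took the other sign under some alternative, and none of these 9 was called under any of the 16. The count of basement membrane probe sets called higher, 2 as reported, was 1 with the replicate block and 5 with the arrays centred on hybridization spike-ins, and ran from 1 to 2 with each array left out. Centring on the hybridization spike-ins also raised the calls over all probe sets from 3439 to 6498 and the related genes called higher from 8 to 17. The centring first run, on the median of all spike-in controls and replaced after its results were seen, made more calls. On the polyadenylated controls it gave 5 basement membrane probe sets and 14 related genes called higher, with 4768 probe sets called in all, and on the hybridization controls 9, 20 and 9647. The median change over all probe sets was then 0.15 and 0.25. Both collagen IV chains, LanB1 and Ppn kept their calls, LanB2 and Ndg were called higher and SPARC was not called under either; 1 and 4 trol probe sets were called higher, and on the hybridization controls LanA too. Over all probe sets the centring on the r2 hybridization controls took the median change (log2) from 0.01 to 0.19 and the lower calls from 53.7% to 13.8% of calls, against 0.09 and 36.2% for the polyadenylated spike-ins. The fall of Col4a1 exceeded that of vkg by 0.18 to 0.32 with each array left out (-0.18 to -0.32 as Col4a1 minus vkg), and by 0.25 with quantile normalization.

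The labels link replicates of the genotypes by number only. Over probe sets above the median level, the deviations of same-numbered replicates from the group means correlated at -0.07, -0.03 and -0.18. Such deviations sum to 0 over the 3 arrays of a genotype, so these values cannot settle whether same-numbered replicates were handled together. With the replicate block 2497 probe sets were called in all, and among the members SPARC and Ppn lost their calls, as did NetB, Loxl1 and eater among other named genes. Probe sets below the median level, among them Ndg and 3 of trol, give no sure change at this signal over background.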

Other observations

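The genes vkg and Col4a1 stand next to each other on chromosome arm 2L, with no protein-coding gene between them in RefSeq Release 6, and are known to be transcribed away from each other. They were set against their neighbours after their values were seen. Of the 4 protein-coding genes on each side, 3 were measured through a probe set of their own. SelT, next to vkg, read 11.89 ± 0.01 in wild type and 11.82 ± 0.04 in the mutant, and Rtnl1 read 12.97 ± 0.02 and 13.02 ± 0.05 (log2, SD, n = 3 each). CG31650, on the side of Col4a1, read 9.93 ± 0.06 and 9.95 ± 0.07. None of these 3 genes was called (limma).

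Kdm5 lies on the same arm, as does LanB1. Between Col4a1 and Kdm5 the table lists 115 protein-coding genes, of which 101 were measured, and 7 of these were called higher and 11 lower. That is 17.8% of them, against 20.8% of measured genes of arm 2L and 21.7% of all named genes.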
